A study of Mus musculus with 11 samples.

Results

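Apelin and adrenomedullin are peptide hormones, and the genes described here encode these peptides and the receptors that read them: Aplnr, Apln, Calcrl, Ramp1, Ramp2, Ramp3 and Adm. They were chosen by name, as the rows of the gene table whose Ensembl identifier maps to these symbols, and all 7 were found among the 37820 genes of the table. RNA-seq of 11 libraries gave their transcript levels in 5 mouse cell populations that follow the formation of hematopoietic stem cells (HSCs) from arterial endothelium, and the comparison asks how the receptor transcripts change as endothelium gives rise to blood. Values are FPKM (fragments per length of transcript and per number of mapped fragments), which are scaled by transcript length. Genes are set side by side on this scale, although the lengths used are not given in the sources.

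Endothelial cells (Endo, 2 libraries) and hemogenic endothelium (HE, 2 libraries), the endothelial cells that give rise to blood, came from E10.5 embryos. The embryos carried the Runx1 tm4Dow GFP reporter and came from B6C3F1 females mated to Runx1 tm4Dow males. The study names the major arteries as the source of Endo and HE. Its account of the gates gives the caudal region of the embryo, with the vitelline and umbilical arteries, as their tissue. Endo was sorted as CD31+ Runx1:GFP- Kit- CD45- CD41- and HE as CD31+ Runx1:GFP+ Kit lo/neg CD45- CD41-. Pre-HSCs (3 libraries) were CD31+ CD144+ ESAM+ Kit+ Ly6a:GFP+ cells. Their tissue was the pooled aorta-gonad-mesonephros region and vitelline and umbilical arteries of embryos that carried a Ly6a-GFP transgene. These embryos came from superovulated B6C3F1/J females. The labels give E10.5 for the pre-HSCs and the study's methods E11.5. Fetal liver HSCs (FL HSCs, 2 libraries) were Lin- Sca1+ Kit+ CD150+ CD48- cells of E14.5 fetuses from B6C3F1/J females and B6129SF1/J males. Bone marrow HSCs (BM HSCs, 2 libraries) were Lin- Sca1+ Kit+ CD150+ cells of B6C3F1/J and B6129SF1/J mice of both sexes aged 6 to 8 weeks, with CD48 and CD135 excluded in one account of the sort and CD34 in another. The labels give the strain B6129SF1 for every library. Stage, tissue, cross, reporter and gate change together between most of these populations and cannot be told apart.

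Apelin, encoded by Apln, binds the G protein-coupled receptor that Aplnr encodes, a pair best known for the growth of blood vessels and the development of the heart. Calcrl encodes a receptor that works only with a single-pass partner from the Ramp family, and the partner sets the ligand: with Ramp1 it is the receptor for calcitonin gene-related peptide, and with Ramp2 or Ramp3 it is a receptor for adrenomedullin, the product of Adm. Adrenomedullin signaling through Calcrl and Ramp2 is known to be needed for normal blood and lymphatic vessels in the mouse embryo.

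The promoters of Ramp1, Ramp3 and Calcrl are printed because these genes followed separate courses across the populations, each described in its place. They are RefSeq sequences of the GRCm38.p6 build and run from 250 bases before to 50 bases after the annotated start. The deposited values use mm9, so no coordinate of one build was carried to the other. Of the 7 genes, 5 had an entry, and Aplnr and Ramp2 did not. Capitals mark a match on either strand to CACCC, a core that Kruppel-like factors bind, or ACAAT, a core that Sox factors bind. They also mark CCGGAAG, a core that ETS factors bind, and ACGTG, a form of the core of the hypoxia response element.
Ramp1, chr1:91179572-91179871, plus strand: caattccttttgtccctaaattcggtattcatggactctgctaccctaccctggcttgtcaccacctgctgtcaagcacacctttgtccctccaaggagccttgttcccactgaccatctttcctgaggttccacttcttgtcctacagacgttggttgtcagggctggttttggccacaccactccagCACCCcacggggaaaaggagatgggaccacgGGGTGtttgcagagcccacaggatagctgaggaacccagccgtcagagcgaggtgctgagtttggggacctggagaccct
Ramp3, chr11:6658283-6658582, plus strand: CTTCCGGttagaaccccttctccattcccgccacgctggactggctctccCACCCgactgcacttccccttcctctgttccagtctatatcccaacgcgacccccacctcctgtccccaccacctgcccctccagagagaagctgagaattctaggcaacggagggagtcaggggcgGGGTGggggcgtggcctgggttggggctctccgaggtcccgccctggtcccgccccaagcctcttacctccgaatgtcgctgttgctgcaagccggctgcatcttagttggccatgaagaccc
Calcrl, chr2:84425217-84425516, minus strand: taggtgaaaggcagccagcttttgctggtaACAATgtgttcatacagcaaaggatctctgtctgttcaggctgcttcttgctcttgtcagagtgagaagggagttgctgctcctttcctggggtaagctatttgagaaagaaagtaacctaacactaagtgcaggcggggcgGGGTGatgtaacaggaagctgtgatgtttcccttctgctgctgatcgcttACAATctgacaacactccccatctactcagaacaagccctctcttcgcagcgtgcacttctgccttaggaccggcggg
The Ramp1 window held 2 matches to CACCC, the Ramp3 window 2 to CACCC and 1 to CCGGAAG, and the Calcrl window 1 to CACCC and 2 to ACAAT. Over all 32851 promoters of the same length, CACCC was found in 57.52%, ACAAT in 31.02%, ACGTG in 19.62% and CCGGAAG in 8.858%. None of the 4 motifs was found in the Apln and Adm windows, which says only that these letters are not there. Other forms of these cores were not searched.

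The sort labels were checked against marker genes, not all of them independent of the sorts. The pan-endothelial genes include Pecam1, Cdh5 and Esam, which encode CD31, CD144 and ESAM. The summed FPKM of 15 pan-endothelial genes lay between 2667 and 3735 in the Endo, HE and pre-HSC libraries and between 495 and 591 in the FL and BM HSC libraries. Venous genes (5) summed to 406 to 528 FPKM in Endo and HE and to 708 to 809 in pre-HSCs. Arterial genes (13) summed to 365 to 477 in these 3 populations. The summed FPKM of 11 pan-hematopoietic genes ran from 38.6 to 65.4 in Endo and HE, from 321 to 564 in pre-HSCs and from 1249 to 1593 in the HSCs. Markers of other cells were also present, with 10 erythroid genes summing to 6482 to 9384 in Endo and HE and to 692 to 950 in pre-HSCs, 12 mural and mesenchymal genes to 226 to 521 in Endo and 1237 to 1325 in HE, and 9 macrophage genes to 4.76 to 11.9 in Endo and HE and 234 to 1272 in pre-HSCs. In FL HSC replicates 1 and 2 the macrophage genes summed to 385 and 111 and the erythroid genes to 408 and 202. In the BM HSC libraries these sums were 108 and 131, and 41.9 and 64.3. An exact 0 need not mean that a transcript was absent. In pre-HSC replicate 3 the core splicing factor Prpf8 is listed at 0, although its level was 36.0 to 129 FPKM in the other 10 libraries.

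Differences were tested with limma over the 14708 genes that reached a FPKM of 1 or more in 2 or more libraries, a filter that all 7 genes passed. A gene was called changed between 2 populations when its adjusted p was under 0.01 in the F test over the 5 populations, its adjusted p in that comparison was under 0.05 and it differed at least 2-fold. All log2 fold changes are on the log2(FPKM + 1) scale, which understates changes of low genes. All 7 genes passed the F test, as did 57.1% of all genes tested.

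Endo, HE and pre-HSCs are called arterial here only as a short name, after the major arteries that the study gives as their source. The name does not come from a marker in their sort. In Endo and pre-HSCs the 5 venous genes summed to more FPKM than the 13 arterial genes, and in HE the ranges of these sums overlapped. Aplnr and Ramp2 were among the most abundant transcripts of these 3 arterial populations. Both were far lower in HSCs, where Aplnr was at most 1.05 FPKM and Ramp2 lay between 1.05 and 9.50. The main drop of both came between pre-HSCs and FL HSCs. Calcrl was present in every population and peaked in pre-HSCs. Ramp1 ran the other way and was the only one of the 7 that was higher in HSCs. Ramp3 and Adm had already fallen in pre-HSCs, and Ramp3 fell further into FL HSCs.

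**Figure D1:**
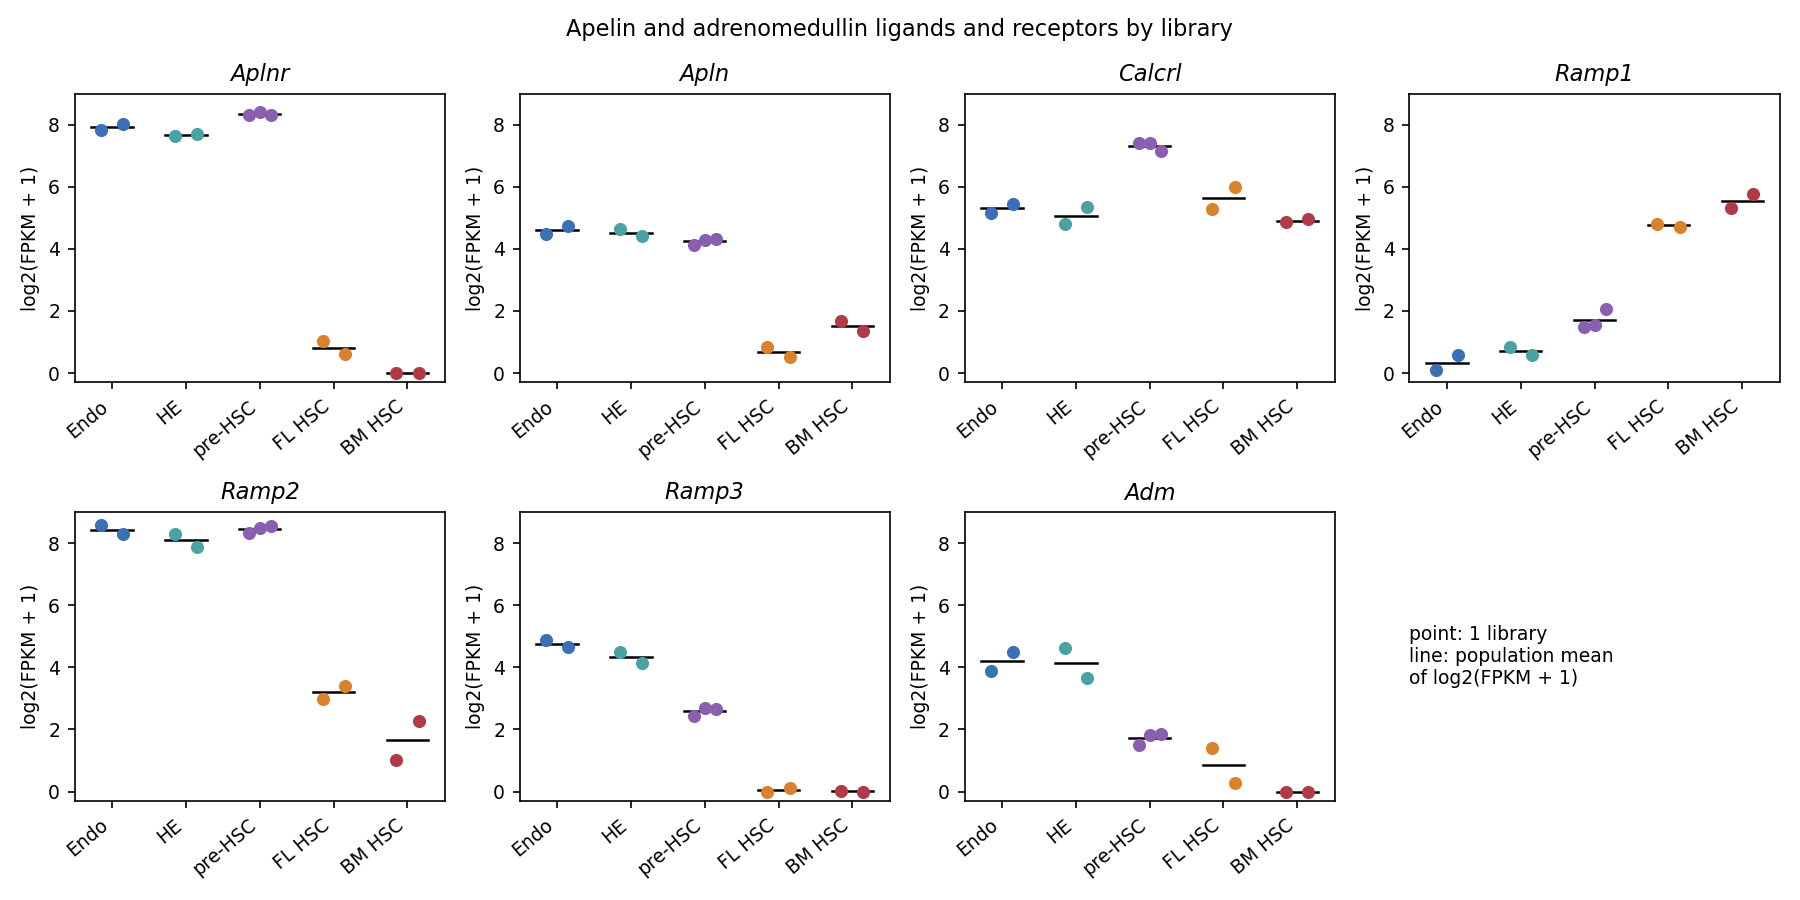
Level of each gene in each library, as log2(FPKM + 1). The 5 populations stand on the horizontal axis in the order Endo, HE, pre-HSCs, FL HSCs and BM HSCs. Each point is 1 library and each line the mean of its population. Aplnr, Apln and Ramp2 drop between pre-HSCs and FL HSCs, Calcrl peaks in pre-HSCs, and Ramp1 is high in the HSCs. Ramp3 and Adm step down in pre-HSCs, and Ramp3 drops again into FL HSCs.

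Aplnr (ENSMUSG00000044338, a gene of 1 exon at chr2:84976517-84980079 on the plus strand of mm9) was at 227 and 259 FPKM in Endo, at 196 and 207 in HE, and at 317, 335 and 315 in pre-HSCs. It was at 1.05 and 0.516 in FL HSCs and is listed at 0 in both BM HSC libraries. The 3 arterial populations did not overlap with each other or with the HSCs, and pre-HSCs were highest. In pre-HSCs its mean of 322 ± 10.98 FPKM (SD, n = 3) ranked 233rd of all genes, and in Endo and HE it ranked 423rd and 480th.

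The step from HE to pre-HSCs was 1.60-fold in the means, with a log2 fold change of 0.68 (standard error 0.14, limma adjusted p = 0.00802), and it was not called because it stayed under 2-fold. From pre-HSCs to FL HSCs Aplnr fell by 7.52 on the log2 scale (standard error 0.14, limma adjusted p = 2.45e-09), which ranked 2nd among the falls of all genes tested in this comparison. Between Endo and HE the log2 fold change was -0.27 (standard error 0.15, limma adjusted p = 0.785). The remaining step to BM HSCs, where no fold is given because Aplnr is listed at 0, was not called, although it was called without FL HSC replicate 2 and with a smaller pseudocount. Since these are sorted populations measured in bulk, fewer cells that carry a transcript and less of it per cell cannot be told apart, here or in any result that follows.

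Apln (ENSMUSG00000037010, 3 exons at chrX:45378323-45388030 on the minus strand), the gene of the ligand, was lower than Aplnr in every library but those of BM HSCs, where Aplnr is listed at 0. It was at 21.2 and 25.4 FPKM in Endo, 23.7 and 20.5 in HE, while pre-HSCs had 16.5, 18.6 and 18.9. It was at 0.787 and 0.437 in FL HSCs and at 2.17 and 1.53 in BM HSCs. Endo and HE overlapped, pre-HSCs lay just under both, and the HSCs were far lower, with BM HSCs above FL HSCs.

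Apln fell by 3.56 on the log2 scale from pre-HSCs to FL HSCs (standard error 0.18, limma adjusted p = 3.33e-07). Its log2 fold change from FL to BM HSCs was 0.82 (standard error 0.20, limma adjusted p = 0.0159), under 2-fold and not called. It was called with a pseudocount of 0.5 or 0.1 in place of 1, at log2 fold changes of 1.09 and 1.48. The ratio of Aplnr to Apln FPKM was 8.27 to 10.7 in the Endo and HE libraries and 16.6 to 19.2 in pre-HSCs.

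Calcrl (ENSMUSG00000059588, chr2:84170783-84265568 on the minus strand, with 20 distinct exons in 3 transcripts), whose product binds peptides only beside a Ramp protein, was at 34.9 and 42.5 FPKM in Endo and at 26.9 and 39.5 in HE. In pre-HSCs it was at 169.8, 168 and 141, in FL HSCs at 38.2 and 62.2, and in BM HSCs at 28.1 and 29.9. The 3 pre-HSC libraries stood above all 8 others, and the other populations lay close together, with HE overlapping Endo, FL HSCs and BM HSCs.

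The mean of Calcrl in pre-HSCs, 159.7 ± 16.3 FPKM (SD, n = 3), was 4.81 times that in HE, 33.2 ± 8.93 (SD, n = 2), a log2 fold change of 2.25 (standard error 0.22, limma adjusted p = 0.000214). Its promoter window was the only one of the 5 searched with matches to ACAAT. It then fell by 1.69 on the log2 scale into FL HSCs (standard error 0.22, limma adjusted p = 0.000185). The further difference to BM HSCs was -0.73 (standard error 0.24, limma adjusted p = 0.0564) and was not called, although it was called at -1.08 without FL HSC replicate 1. In the order of the means below pre-HSCs, which was FL HSCs, Endo, HE and BM HSCs, no neighbors differed past the threshold (limma adjusted p = 0.284, 0.951 and 0.584).

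The 9 macrophage markers all rose from HE to pre-HSCs, as Calcrl did, and their part in its rise was not tested. They summed to 626, 234 and 1272 FPKM in pre-HSC replicates 1 to 3, where Calcrl was at 169.8, 168 and 141. Among these libraries the highest sum thus stood beside the lowest Calcrl. Of 5 venous genes, 3 also rose in this step, in which 6.98% of all genes were called higher and 4.34% lower. Nrp2 rose by 1.42, Nr2f2 by 1.30 and Emcn by 1.02 on the log2 scale (limma adjusted p = 0.00465, 0.00712 and 0.00248). The median log2 fold change of the venous genes was 1.02, against 0.089 for all genes, and 1 was called without HE replicate 1. Of 13 arterial genes, 8 were higher and 5 lower, with a median of 0.088. Among these, 3 were called, all lower, and 1 without HE replicate 1, pre-HSC replicate 1 or pre-HSC replicate 3.

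Ramp1 (ENSMUSG00000034353, chr1:93076399-93121773 on the plus strand), the partner that turns Calcrl into a receptor for calcitonin gene-related peptide, was at 0.0792 and 0.486 FPKM in Endo, 0.806 and 0.509 in HE, while pre-HSCs had 1.82, 1.93 and 3.18. It was at 27.2 and 24.9 in FL HSCs and at 39.0 and 52.8 in BM HSCs. No population overlapped with the next in this order, and each was higher than the one before it. Of these steps only that from pre-HSCs to FL HSCs was called. Endo and HE are of the same embryonic day, and their values were all under 1 FPKM.

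From pre-HSCs to FL HSCs the mean of Ramp1 rose 11.3-fold, a log2 fold change of 3.05 (standard error 0.24, limma adjusted p = 6.54e-06). The earlier step from HE to pre-HSCs had a log2 fold change of 0.98 (standard error 0.24, limma adjusted p = 0.0165), just under 2-fold. It was called with 1.08 without pre-HSC replicate 1, with 1.06 without replicate 2, and with a smaller pseudocount or libraries scaled to equal totals. From Endo to pre-HSCs, a comparison across both arterial steps in which 10.3% of all genes were called, Ramp1 rose by 1.36 (standard error 0.24, limma adjusted p = 0.00412). The step from FL to BM HSCs, at 0.78 (standard error 0.27, limma adjusted p = 0.0614), was not called.

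Ramp2 (ENSMUSG00000001240, chr11:101107342-101120860 on the plus strand), the adrenomedullin partner, was at 378 and 314 FPKM in Endo, 314 and 235 in HE, while pre-HSCs had 319, 354 and 369.6. It was at 6.98 and 9.50 in FL HSCs and at 1.05 and 3.87 in BM HSCs. Endo overlapped with HE and with pre-HSCs, while each HE library lay below every pre-HSC library, a step that was not called. All 3 arterial populations were at 235 or more. The HSCs lay far below them, without overlap between FL and BM HSCs. In pre-HSCs its mean of 348 ± 25.9 FPKM (SD, n = 3) ranked 213th of all genes.

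Ramp2 fell by 5.25 on the log2 scale from pre-HSCs to FL HSCs (standard error 0.31, limma adjusted p = 8.73e-07). From FL to BM HSCs it fell by 1.54 (standard error 0.34, limma adjusted p = 0.0110), and this call rested on BM HSC replicate 1. Without that library the value was -0.91 with limma adjusted p = 0.0413, and with only the FL and BM HSC libraries in the fit limma adjusted p was 0.204, in a range of 0.00117 to 0.204 over the alternatives. The exons of Ramp2 overlap those of Vps25 on the same strand, so some reads may be shared. Vps25, a gene of endosomal sorting, stayed at 73.5 to 142 FPKM in every library while Ramp2 dropped to 1.05.

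Ramp3 (ENSMUSG00000041046, chr11:6558524-6577478 on the plus strand), the other adrenomedullin partner, was at 28.3 and 24.1 FPKM in Endo, 21.6 and 16.7 in HE, while pre-HSCs had 4.37, 5.48 and 5.29. In FL HSCs it is listed at 0 and 0.0859, and in BM HSCs at 0.0247 and 0. Endo, HE and pre-HSCs did not overlap, and the HSC libraries were all near 0. The fall from HE to pre-HSCs was 3.80-fold in the means, at 19.1 ± 3.41 (SD, n = 2) against 5.04 ± 0.592 (SD, n = 3) FPKM, and Ramp3 fell by 1.73 on the log2 scale (standard error 0.19, limma adjusted p = 0.000332). From pre-HSCs to FL HSCs Ramp3 fell by a further 2.53 on the log2 scale (standard error 0.19, limma adjusted p = 3.69e-06). Its promoter window was the only one of the 5 searched with a match to CCGGAAG. An antisense transcript, Gm11978, overlaps Ramp3 and is listed at 0 in all 11 libraries.

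Adm (ENSMUSG00000030790, 4 exons at chr7:117771175-117773331 on the plus strand), the adrenomedullin gene, was at 13.8 and 21.8 FPKM in Endo, 23.8 and 11.6 in HE, while pre-HSCs had 1.84, 2.57 and 2.60. In FL HSCs it was at 1.62 and 0.223, and it is listed at 0 in both BM HSC libraries. Both Endo libraries lay within the range of HE, and pre-HSCs lay below both. Adm fell by 2.41 on the log2 scale from HE to pre-HSCs (standard error 0.37, limma adjusted p = 0.00207), from 17.7 ± 8.61 (SD, n = 2) to 2.34 ± 0.432 (SD, n = 3) FPKM.

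The later step of Adm from pre-HSCs to FL HSCs, -0.89 (standard error 0.37, limma adjusted p = 0.0735), was not called, but it was called at -1.44 without FL HSC replicate 1, and also with a pseudocount of 0.1 or equal totals. The step to BM HSCs, where Adm is listed at 0, was called without FL HSC replicate 2 and with a pseudocount of 0.1, and otherwise not. From Endo to pre-HSCs Adm fell by 2.47 and Ramp3 by 2.17 (limma adjusted p = 0.00191 and 7.87e-05). Epithelial, mural and erythroid genes fell in the same step as Adm and Ramp3, from HE to pre-HSCs, for 7 of 7, 7 of 12 and 8 of 10 genes, where 4.34% of all genes were called lower. Without HE replicate 1 the epithelial count was 1, and the mural count was 4 without HE replicate 1 or 2 or without pre-HSC replicate 2 or 3. The epithelial genes summed to 59.0 and 185 FPKM in Endo, to 527 and 255 in HE and to 32.9 to 60.1 in pre-HSCs. The part of these cells in the falls of Adm and Ramp3 was not tested.

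The counts of called genes followed these courses, and neighboring comparisons share the libraries of the population between them. Between Endo and HE limma called 0 of the 7 genes, with 0 at an unadjusted p under 0.05, where 0.129% of all genes tested were called. Between HE and pre-HSCs it called 3, with Calcrl higher and Ramp3 and Adm lower, against 11.3% of all genes (6.98% higher and 4.34% lower). Between pre-HSCs and FL HSCs it called 6, with Ramp1 higher and Aplnr, Apln, Calcrl, Ramp2 and Ramp3 lower, against 25% of all genes (11.1% higher and 13.9% lower). Between FL and BM HSCs it called 1, Ramp2, which was lower, a share near the 10.1% of all genes (5.99% higher and 4.07% lower). The median log2 fold change of the 7 genes was -0.24, 0.35, -2.53 and -0.73 in these 4 steps, and that of all genes tested was 0.025, 0.089, 0.11 and 0.

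When the mean of both HSC populations was set against the mean of Endo, HE and pre-HSCs, which were all sorted for CD31, 6 of the 7 genes were called, against 29.9% of all genes (16% higher and 13.9% lower). Ramp1 was higher in HSCs by 4.22 on the log2 scale (standard error 0.17, limma adjusted p = 1.69e-08). Aplnr, Ramp2, Ramp3, Apln and Adm were lower, with log2 fold changes of -7.56, -5.90, -3.85, -3.36 and -2.94. Calcrl, at -0.63 (standard error 0.15, limma adjusted p = 0.00454), stayed under 2-fold. The pan-endothelial genes moved the same way as the 5 lower genes, with 14 of 15 lower in HSCs and a median log2 fold change of -3.46. These genes include Pecam1, which encodes CD31, so their direction is not independent of the sort.

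**Figure D2:**
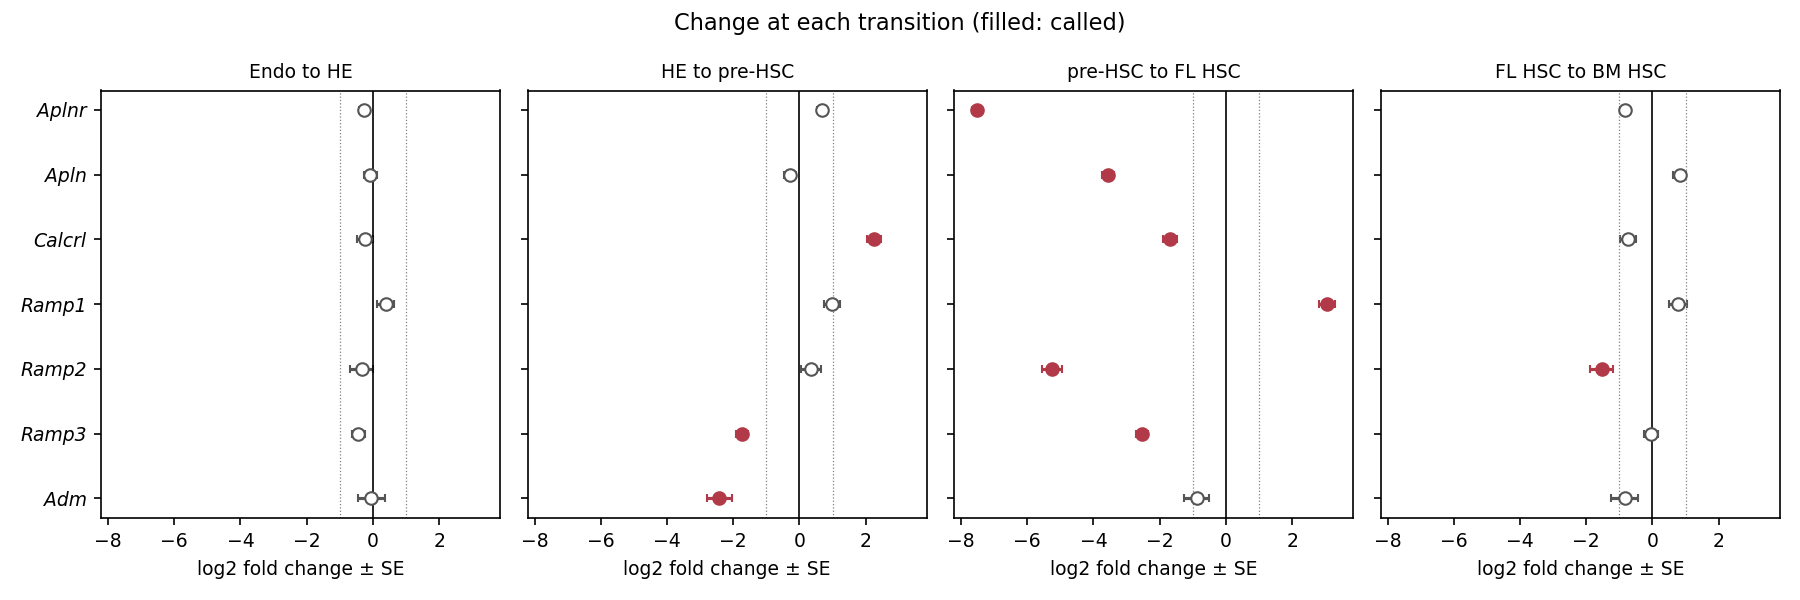
Log2 fold change of each gene at each of the 4 steps, on the log2(FPKM + 1) scale, with bars for the standard error and dotted lines at a 2-fold change. Filled points were called. From left to right, 0, 3, 6 and 1 of the 7 genes were called.

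Because the Ramp partner sets which peptide Calcrl binds, the shares of the 3 Ramp transcripts were compared within each library, as percent of their summed FPKM. Ramp2 made up 92.7 to 93.4% in the 4 Endo and HE libraries and 97.8 to 98.1% in the 3 pre-HSC libraries. Its share was 20.4 and 27.5% in FL HSCs, then 2.61 and 6.83% among BM HSCs. Ramp1 made up most of the sum in HSCs, with 79.6 and 72.2% in FL HSCs, then 97.3 and 93.2% among BM HSCs, after at most 0.841% in any of the 7 arterial libraries. The Ramp3 share went from 6.40 to 7.13% in Endo and HE to 1.34 to 1.51% in pre-HSCs and at most 0.249% in HSCs.

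Total Ramp transcript also changed relative to Calcrl. The summed FPKM of the 3 Ramp genes was 6.38 to 12.5 times that of Calcrl in Endo and HE and 1.92 to 2.68 times in pre-HSCs, where Calcrl was highest. In FL HSCs it was 0.895 and 0.556 times that of Calcrl, and in BM HSCs 1.43 and 1.90 times. The libraries of FL HSCs did not overlap with any other population in this ratio. Calcrl was above the sum in FL HSCs, but narrowly in replicate 1, at 38.2 against 34.1 FPKM. The transcript lengths behind this comparison of genes are not given. These are transcript ratios in pooled cells, and which Ramp transcript shares a cell with Calcrl was not measured.

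**Figure D3:**
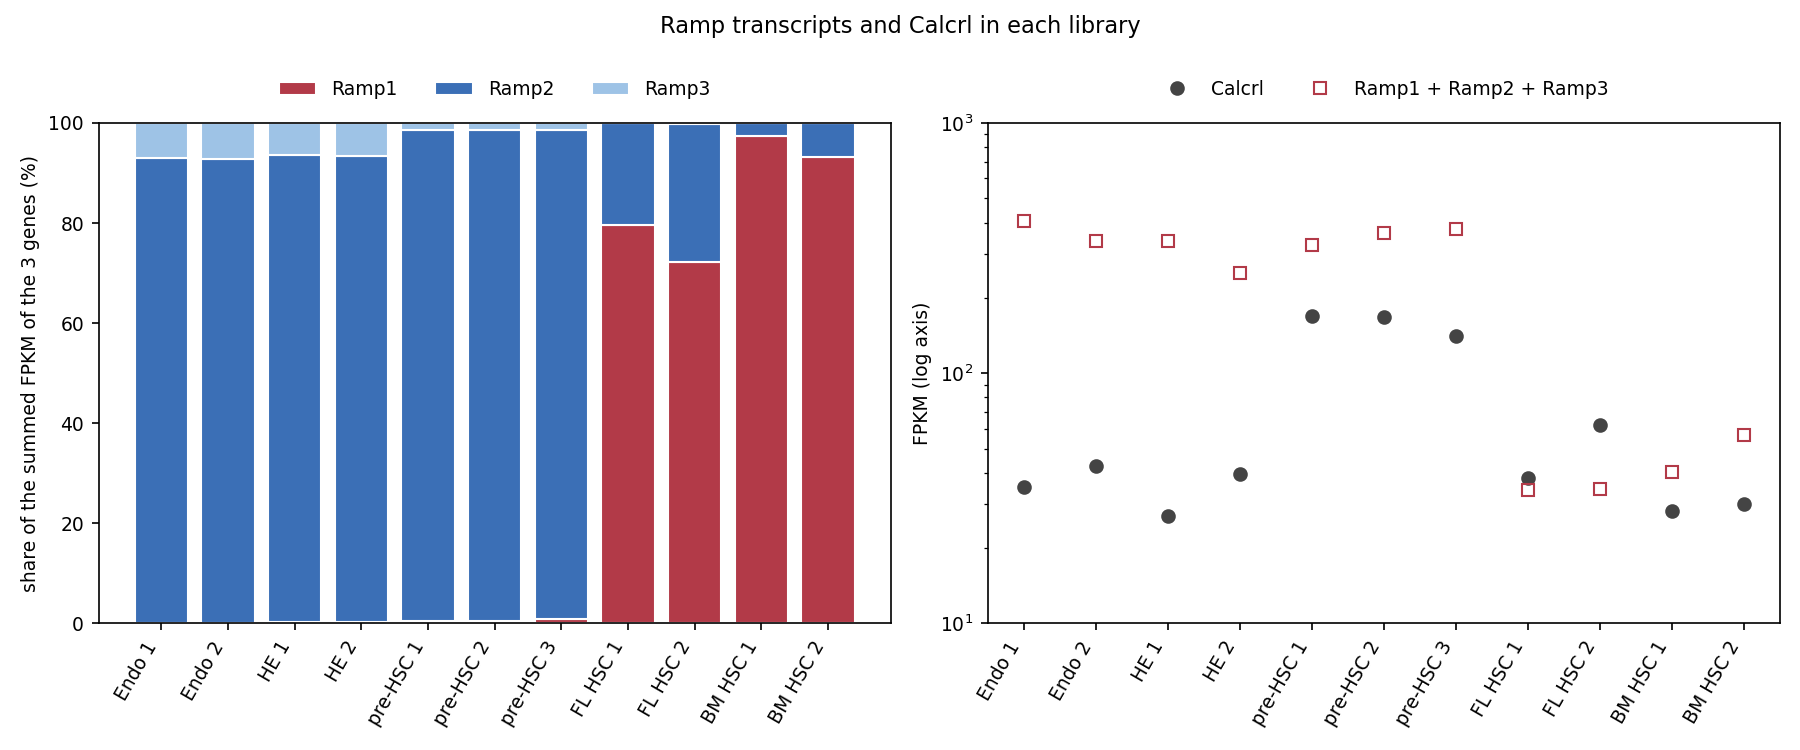
Left, share of each Ramp gene in the summed FPKM of Ramp1, Ramp2 and Ramp3, in percent, for each of the 11 libraries. Right, FPKM of Calcrl (filled circles) and of the 3 Ramp genes together (open squares) on a log axis. Ramp2 dominates the arterial libraries and Ramp1 the HSC libraries. Calcrl exceeds the Ramp sum only in the 2 FL HSC libraries, narrowly in replicate 1.

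Other peptides and receptors of these families were mostly at or near 0. Apela, the second ligand of the apelin receptor, was at 0.404 to 1.91 FPKM in the 7 arterial libraries and is listed at 0 in all HSC libraries. Of the other ligands of Calcrl, Calca did not exceed 0.477, Adm2 0.266 and Calcb 0.158 in any library, so no FPKM of 1 was reached for a calcitonin gene-related peptide transcript in the HSC populations where Ramp1 was high. Calcr, the calcitonin receptor, did not exceed 0.163 FPKM, and Iapp, the gene of amylin, is listed at 0 in all libraries.

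Of this list of 9 further ligands and receptors, 4 passed the filter on low values. Ackr3, a receptor that can take up adrenomedullin, was at 4.06 and 6.68 FPKM in Endo, 11.03 and 9.02 in HE, while pre-HSCs had 8.38, 7.08 and 10.8 and HSCs no more than 0.133. It fell by 3.14 on the log2 scale from pre-HSCs to FL HSCs (standard error 0.24, limma adjusted p = 4.66e-06). Gpr182, an endothelial receptor once listed as an adrenomedullin receptor, was at 19.3, 25.0 and 22.5 FPKM in pre-HSCs against 8.40 to 13.9 in Endo and HE and 0.762 to 1.62 in HSCs. Like Calcrl it rose from HE to pre-HSCs, by 1.17 (standard error 0.19, limma adjusted p = 0.00229), and it then fell by 3.15 into FL HSCs (standard error 0.19, limma adjusted p = 8.90e-07). Crcp, which encodes a protein reported to couple the Calcrl receptor to its signal, was at 21.1 to 29.8 FPKM in all libraries and was called in none of the 4 steps.

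The 8 genes of peptide processing described here all passed the filter. Pam amidates the ends of peptides such as adrenomedullin. It was at 58.3, 59.9 and 55.1 FPKM in pre-HSCs against 26.8 to 27.9 in Endo and HE and 18.1 to 30.4 in HSCs. It rose by 1.07 from HE to pre-HSCs (standard error 0.17, limma adjusted p = 0.00259) and fell by 1.28 into FL HSCs (standard error 0.17, limma adjusted p = 0.000229).

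Cpe, a carboxypeptidase of prohormones, fell by 5.00 from pre-HSCs to FL HSCs (standard error 0.20, limma adjusted p = 8.41e-08). Dpp4, a dipeptidyl peptidase of the cell surface, rose by 1.46 from FL to BM HSCs (standard error 0.26, limma adjusted p = 0.00384). Ide, a peptide-degrading protease, was higher in HSCs than in the arterial populations by 1.25 (standard error 0.12, limma adjusted p = 1.12e-05). Furin, a proprotein convertase, and the peptidases Mme, Prep and Ece1 were called in none of the 4 steps, and Ece1 varied within populations, with 69.9 and 345 FPKM in the FL HSC libraries.

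Among 26 genes of G protein signaling downstream of such receptors, 0 were called between Endo and HE, with 2 at an unadjusted p under 0.05 in limma. From HE to pre-HSCs 2 rose, Adcy7 by 2.49 and Grk3 by 1.01 on the log2 scale (limma adjusted p = 0.000201 and 0.0274), a share near the 6.98% of all genes called higher. The count was 1 without HE replicate 1, pre-HSC replicate 1 or pre-HSC replicate 2, and 4 without HE replicate 2. In the next step, into FL HSCs, 4 rose and 9 fell, where 11.1% of all genes were called higher and 13.9% lower. Adcy4, an adenylyl cyclase, went from 34.2 to 37.0 FPKM in pre-HSCs to 0.331 and 0.615 in FL HSCs, a log2 fold change of -4.62 (standard error 0.15, limma adjusted p = 2.62e-08). Adcy7, another adenylyl cyclase, rose again in this step, from 7.62 to 13.8 FPKM to 32.6 and 45.4, a log2 fold change of 1.77 (standard error 0.24, limma adjusted p = 0.000234). Nos3, the endothelial nitric oxide synthase, fell by 4.59 (standard error 0.16, limma adjusted p = 3.35e-08), and Rgs2, which limits G protein signals, fell by 2.73 (standard error 0.21, limma adjusted p = 4.55e-06). Gnai1, an inhibitory G protein subunit, fell by 2.51 (standard error 0.21, limma adjusted p = 7.88e-06).

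**Figure D4:**
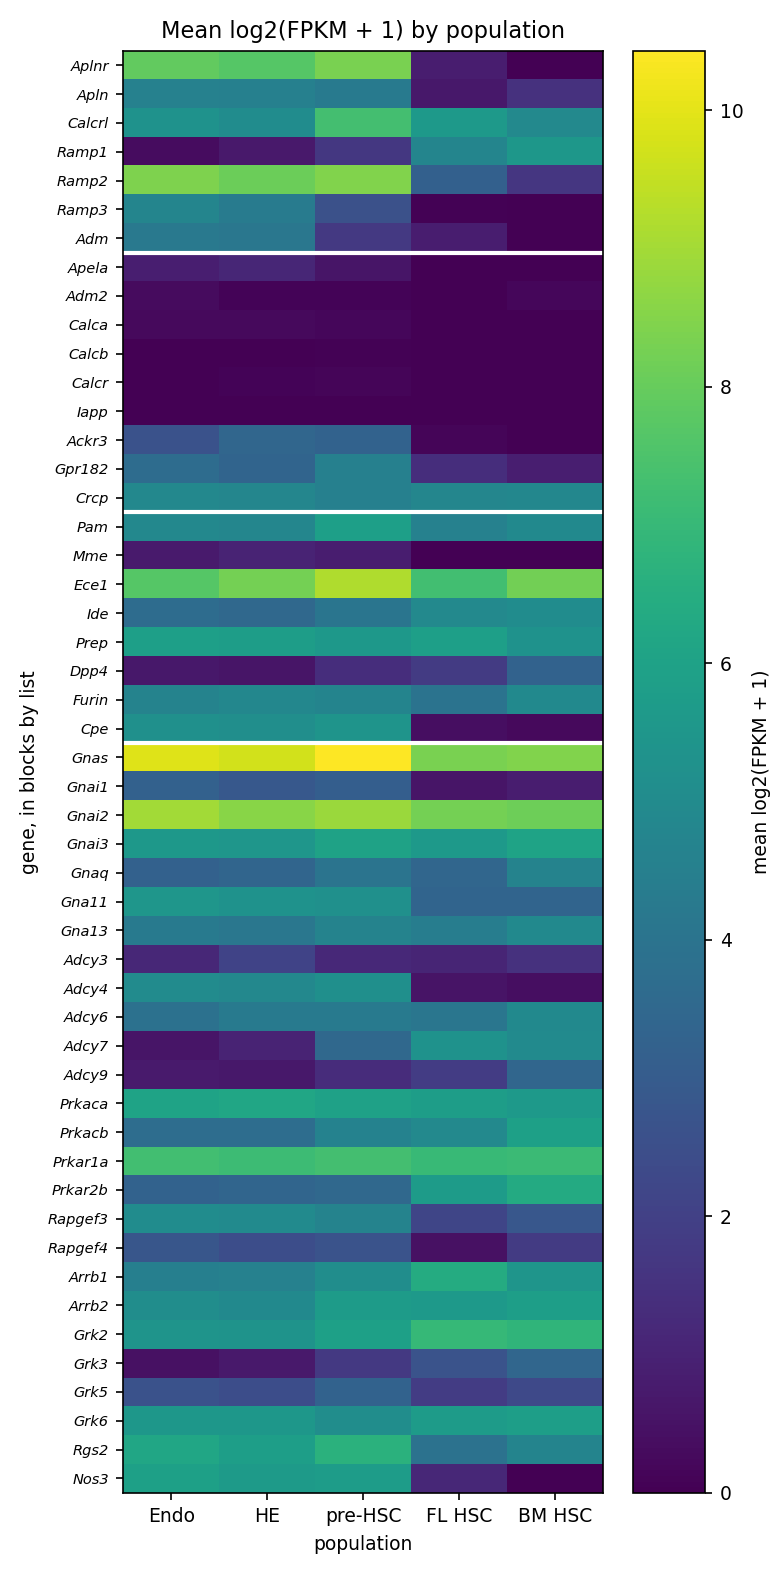
Mean log2(FPKM + 1) in each population for the 7 genes and for 3 lists of their pathway, divided by white lines: other ligands and receptors, peptide processing, and G protein signaling. Colors run from 0 (dark) to the highest mean (yellow). Pam and Gpr182 are brightest in pre-HSCs as Calcrl is, and Adcy4 fades and Adcy7 brightens between pre-HSCs and FL HSCs.

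Adm and Apln are known as genes that low oxygen induces, and both were set beside a list of 19 genes of the hypoxia response. From HE to pre-HSCs 4 of them fell and 0 rose, Slc2a3 by 3.47, Slc2a1 by 1.98, Pgk1 by 1.07 and Ldha by 1.04 on the log2 scale (limma adjusted p = 0.00272, 0.000140, 0.00459 and 0.0114), where 4.34% of all genes were called lower. The median of the list was -0.50, and the count called was 1 without HE replicate 1 and 2 without pre-HSC replicate 1. Slc2a3 and Slc2a1 encode glucose transporters, and Pgk1 and Ldha encode enzymes of glycolysis. Called or not, 13 of the 19 genes were lower and 6 higher in pre-HSCs than in HE. Adm fell by 2.41 in this step, while Apln was at -0.28 (limma adjusted p = 0.269) and was not called. The summed FPKM of the list was 2785 and 3003 in Endo, 3614 and 2367 in HE, while pre-HSCs had 1239, 1359 and 1434. Among the 4 Endo and HE libraries, HE replicate 1 was highest and HE replicate 2 lowest both in this sum and in Adm. Apln was highest in Endo replicate 2, at 25.4 FPKM, and lowest in HE replicate 2, at 20.5. In FL HSCs the sum was 2698 and 1925 while Adm was at 1.62 and 0.223, so the populations were not in the same order for this sum and Adm. Ldha alone was at 2131 and 1404 FPKM in FL HSCs, against 662 to 785 in pre-HSCs. The place of FL HSCs above pre-HSCs in the sum therefore depends on this gene. Whether oxygen differed between the samples was not tested.

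Of 9 tip cell genes, a group of sprouting endothelium in which Apln is often counted, 5 fell from HE to pre-HSCs and 0 rose, beside the 4.34% of all genes called lower. Their median log2 fold change was -1.04, and 3 were called without pre-HSC replicate 1. Unc5b fell by 1.68, Esm1 by 1.65, Pgf by 1.55 and Cxcr4 by 1.10 on the log2 scale (limma adjusted p = 0.000214, 0.000345, 0.000999 and 0.0262). Apln itself had a log2 fold change of -0.28 (standard error 0.18, limma adjusted p = 0.269) in this step and was not called.

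The genes whose log2(FPKM + 1) was most like that of each gene over the 11 libraries were named by Pearson's r among 8996 protein-coding genes. The points share 5 populations, so r carries the differences between these. For Aplnr they were Cald1, Fblim1 and Adcy4 (r = 0.999, 0.998 and 0.998), and for Apln they were Hlx, Mmp15 and Rgs3 (0.995, 0.995 and 0.993). For Ramp2 they were Cd276, Ecscr and Rgl1 (0.998, 0.997 and 0.994), and for Ramp1 they were Mast3, Tnfsf14 and Acp6 (0.996, 0.995 and 0.994). Ramp3 was closest to Gm266, Fzd10 and Fam109a (0.996, 0.995 and 0.995) and Adm to Aph1a, Aacs and Zfp428 (0.987, 0.986 and 0.982). Calcrl had the lowest best value, with Klf3, Swap70 and Tmtc2 (0.962, 0.956 and 0.949). Tmtc2 had a mean of 11.7 FPKM in pre-HSCs and 2.18 to 3.38 in the other populations.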

How the data were processed

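RNA was poly(A)-selected and sequenced in paired-end mode. The authors aligned reads to mm9 with TopHat, kept reads with a unique position and under 2 mismatches, and took genes from Ensembl. In the submitters' notes stand also Cufflinks, featureCounts, Subread and edgeR, without versions. The deposited table holds FPKM. Which tool made these values is not stated in the sources. Low values showed no steps of whole reads (no more than 7 single-exon genes shared any value). Depth is unknown, and no counting interval is given. The study calls the replicates biological and does not state how they were separated, so p-values measure the spread between these libraries.

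GENCODE M1 gave symbols and mm9 positions for 37038 of 37820 genes. The model was fitted to log2(FPKM + 1) by limma 3.58.1 under R 4.3.3 (eBayes with a trend, population as the factor, 11 libraries, Benjamini-Hochberg adjustment over 14708 genes). All libraries share 1 estimate of the spread. The fit was tested on simulated data. The 7 genes, the gene lists and the tests were chosen with earlier results of these data known. Named are the 7 genes, the further ligands, receptors and processing genes (1 of the latter is not reported here), up to 4 called genes per other list and comparison, those with the largest changes (Adcy7 is followed into a further step), and for each gene the 3 most alike with a mean FPKM of at least 10 in some population. Alternatives were other pseudocounts, filters, scalings and thresholds, the replicate number as a block, fewer populations, and each library left out in turn. Tables and plots used Python 3.11.15, pandas 2.3.3 and matplotlib 3.10.9.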

Additional observations from a re-analysis of the deposited data

How the results depend on the processing

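The counts of 0, 3 and 6 genes called in the first 3 steps, and of 6 between the arterial populations and HSCs, stayed within 1.5 times of these values under every alternative run, and each call of a single gene in these comparisons was kept under all of them. Between FL and BM HSCs, where Ramp2 alone was called, the count was 4 with a pseudocount of 0.1, 3 with 0.5, 0 at an adjusted p under 0.01 and 0 with only the populations compared, and ranged from 0 to 3 with 1 library left out. The smaller pseudocounts added Aplnr and Apln, and 0.1 also Adm. Small differences that were not called changed sign in 9 cases. Between Endo and HE, scaling to equal totals gave 0.032 for Apln and 0.049 for Adm. With 1 library left out, Apln ranged from -0.20 to 0.051, Adm from -0.54 to 0.43 and Calcrl from -0.50 to 0.034. Between FL and BM HSCs Ramp3 was at 0.012 after quantile normalization and ranged from -0.10 to 0.018 with 1 library left out.

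Scaling to equal totals moved the median of all genes from 0.089 to 0.22 between HE and pre-HSCs and from 0.11 to -0.090 between pre-HSCs and FL HSCs, and quantile normalization moved the former to -0.018. The share of risers among called genes went from 61.6% to 73.3% and 49.1% between HE and pre-HSCs, and from 44.5% to 32.6% under equal totals between pre-HSCs and FL HSCs. Relative to these medians, Calcrl rose by 2.16 to 2.35 from HE to pre-HSCs and Ramp1 by 2.94 to 2.99 from pre-HSCs to FL HSCs. Over all genes, the 19 calls between Endo and HE became 0 to 31. Without HE replicate 1 the 1665 calls between HE and pre-HSCs became 983, and the 1480 between FL and BM HSCs became 0 with only these populations and 981 without FL HSC replicate 1.

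Deviations of libraries with the same replicate number correlated at -0.155 to 0.156 over all pairs of populations and at 0.116 for Endo and HE. The study lists equal numbers of embryos for Endo and HE, but no source used here says that same-numbered libraries share embryos, and the numbers were not taken as pairs. With the number as a block the counts of the 7 genes called were 0, 3, 6, 1 and 6, and over all genes 11 were called between Endo and HE. The fit with only the populations compared could not be run for the arterial populations against HSCs, which uses all libraries. Depth is unknown, and values under 1 FPKM carry little weight.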
